A study of Rattus norvegicus with 4 samples.

Results

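Genes of cell division and DNA replication were followed in rat muscle over 14 days after a 4 h interruption of its blood supply. They were 47 genes, chosen by name from 35611 genes on the array, as genes that copy DNA, drive or carry out mitosis, or start and brake the cell cycle. All 47 were on the array. By role they were 10 genes of DNA replication, 5 of S phase control, 27 of mitosis, a group of 4 made of the D-type cyclins and their kinase Cdk4, and 1 inhibitor, Cdkn1a. The tissue was the gracilis, a thin muscle of the inner thigh, of male Sprague-Dawley rats. Injured muscle had 4 h of ischemia and then 1, 3, 7 or 14 days of reperfusion, and each of these 4 groups was read against a sham-operated gracilis on a 2-colour Agilent array. Injured RNA carried Cy5 and sham RNA Cy3 on every array, so within an array injury and dye cannot be told apart. There was 1 array a day, so no value has a replicate and no test was possible. A difference called higher or lower is one of at least 2-fold, a rule of size. The labels give no age, no time after the sham operation and no word on whether the 4 sham RNAs came from different animals.

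A cell that leaves rest first makes D-type cyclins, which with Cdk4 open the way into the cycle, and then cyclin E, which with Cdk2 starts DNA replication. Replication genes such as the Mcm helicase subunits are switched on by E2F factors at that point, whereas the genes of mitosis follow later and are driven through CCAAT boxes and through a motif named the cell cycle homology region (CHR). Cdkn1a, also called p21, blocks the cyclin-dependent kinases and is made in quantity when cells stop dividing and differentiate. Muscle fibres do not divide, but the satellite cells that rebuild them do, as do fibroblasts, endothelial cells and inflammatory cells of a wounded muscle.

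The promoters of 6 of these genes are printed as examples, chosen for the motifs they hold or, for Cdkn1a, lack. Not all windows of a group are like them. Each is the 250 bases before the annotated start in RefSeq, assembly GRCr8, read 5′ to 3′ on the gene's strand. Capitals mark a CCAAT box (CCAAT), a CHR (TTTGAA) or an E2F site (TTTCCCGC, TTTGGCGC, TTTCGCGC or TTTGCCGC), searched on both strands. Where sites overlap, their letters run together.
Cdk1, chr20:19265043-19265292, forward strand: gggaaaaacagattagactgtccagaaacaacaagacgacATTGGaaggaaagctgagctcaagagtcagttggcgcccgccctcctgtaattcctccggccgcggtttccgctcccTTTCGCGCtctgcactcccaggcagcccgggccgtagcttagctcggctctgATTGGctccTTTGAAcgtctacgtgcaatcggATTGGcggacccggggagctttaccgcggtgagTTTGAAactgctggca
Ccnb2, chr8:79981659-79981908, reverse strand: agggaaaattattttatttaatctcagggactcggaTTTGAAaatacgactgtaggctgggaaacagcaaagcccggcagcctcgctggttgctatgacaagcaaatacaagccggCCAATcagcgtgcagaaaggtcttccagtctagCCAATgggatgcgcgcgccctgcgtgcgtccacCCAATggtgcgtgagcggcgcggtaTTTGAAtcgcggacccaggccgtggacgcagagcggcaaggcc
Cdc20, chr5:137255800-137256049, reverse strand: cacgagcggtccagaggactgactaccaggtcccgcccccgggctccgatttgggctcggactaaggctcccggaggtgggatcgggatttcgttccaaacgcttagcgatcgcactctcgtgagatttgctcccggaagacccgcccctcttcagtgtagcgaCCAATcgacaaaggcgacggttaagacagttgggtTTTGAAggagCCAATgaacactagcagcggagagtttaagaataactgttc
Mcm6, chr13:42404353-42404602, reverse strand: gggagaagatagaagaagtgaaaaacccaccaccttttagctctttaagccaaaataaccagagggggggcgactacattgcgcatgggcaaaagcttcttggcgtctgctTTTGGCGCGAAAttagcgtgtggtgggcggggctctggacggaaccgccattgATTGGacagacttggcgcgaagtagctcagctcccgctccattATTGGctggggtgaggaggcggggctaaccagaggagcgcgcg
Mcm7, chr12:22163179-22163428, reverse strand: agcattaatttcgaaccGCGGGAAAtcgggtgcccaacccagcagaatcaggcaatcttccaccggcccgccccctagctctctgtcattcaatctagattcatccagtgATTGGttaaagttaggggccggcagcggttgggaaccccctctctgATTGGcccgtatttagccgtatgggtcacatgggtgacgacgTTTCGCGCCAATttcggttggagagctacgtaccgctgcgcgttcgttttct
Cdkn1a, chr20:7150682-7150931, forward strand: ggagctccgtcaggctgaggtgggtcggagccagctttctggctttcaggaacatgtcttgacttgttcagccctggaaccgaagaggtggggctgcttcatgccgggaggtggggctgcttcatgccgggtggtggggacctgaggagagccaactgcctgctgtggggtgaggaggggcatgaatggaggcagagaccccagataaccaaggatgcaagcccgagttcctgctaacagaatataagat
The window of Cdk1, the mitotic kinase, held 3 CCAAT boxes, 2 CHRs and 1 E2F site. Ccnb2, a B-type cyclin that partners it, held 3 CCAAT boxes and 2 CHRs, and Cdc20, which activates the anaphase-promoting complex, held 2 and 1. The helicase subunits Mcm6 and Mcm7 had 2 E2F matches each and no CHR. The 2 of Mcm6 overlap on opposite strands and so mark 1 stretch, while the 2 of Mcm7 lie apart. In the window of Cdkn1a, the 1 searched for that gene, none of these letters was found. That says nothing about sequence outside the window or about the factors themselves.

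RefSeq windows matched 37 of the 47 genes, in 39 windows. Among all 33469 windows, 34.0% held a CCAAT box, 16.2% a CHR and 1.73% an E2F site. Among the mitosis genes, 18 of 24 windows held a CCAAT box (75%, exact 95% binomial interval 53.3% to 90.2%). A CHR was in 10 of these 24 (41.7%, interval 22.1% to 63.4%) and an E2F site in 1, that of Cdk1. Cdkn3 and Kif2c had 2 windows each, those of Cdkn3 overlapping. By gene, a CCAAT box was found for 17 of 22 and a CHR for 9 of 22. The intervals treat windows as independent draws, although the genes were chosen by name. Among the replication genes, 6 of 8 windows held a CCAAT box, 1 a CHR and 5 an E2F site (62.5%, interval 24.5% to 91.5%), those of Mcm2, Mcm5, Mcm6, Mcm7 and Tyms. The CHR interval of the replication windows (0.316% to 52.7%) overlapped that of the mitosis windows, and differences between the groups were not tested. Mcm2, a replication gene, held 2 CHRs, and the windows of the mitosis genes Aurka, Bub1, Bub1b, Kif2c and Mad2l1 held none of the 3 motifs. Among other genes of both processes, a CHR was in 22 of 33 windows of mitosis genes and in 0 of 27 of replication genes (interval up to 12.8%). CCAAT boxes were in 25 of those 33 and 16 of those 27 windows, and E2F sites in 2 of those 33 and 4 of those 27. With the whole window, which reaches past the start, the CHR share of the mitosis genes was 66.7% and the E2F share of the other replication genes 37.0%. A match is a description of letters, not of a bound site.

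The labelled tissue was checked on its own genes. Markers of the fast muscle fibre (7 measured, among them Ckm, Acta1 and Myh4) were all higher in the sham than in the injured channel on days 1 and 3, with median log2 ratios of injured to sham of -3.15 and -4.24. The median was -0.50 on day 7 and 1.10 on day 14, and all 7 were above background in both channels of every array. Injured channels (Cy5) had 64.4% to 68.7% of 41012 probes well above background and sham channels (Cy3) 34.7% to 47.3%. The log2 ratio of 40 probes printed 10 times on each array had a median SD of 0.04 to 0.07, which is spot noise. Over the 4 sham channels, single-channel log2 levels of the 47 genes had a median SD of 0.17, the same as over all genes with a sham signal (0.17). That SD is the only spread across arrays of 1 condition in these data. Whether it includes differences between animals is not known. Levels are from bulk muscle, so fewer dividing cells and less RNA of these genes per cell cannot be told apart.

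**Figure D1:**
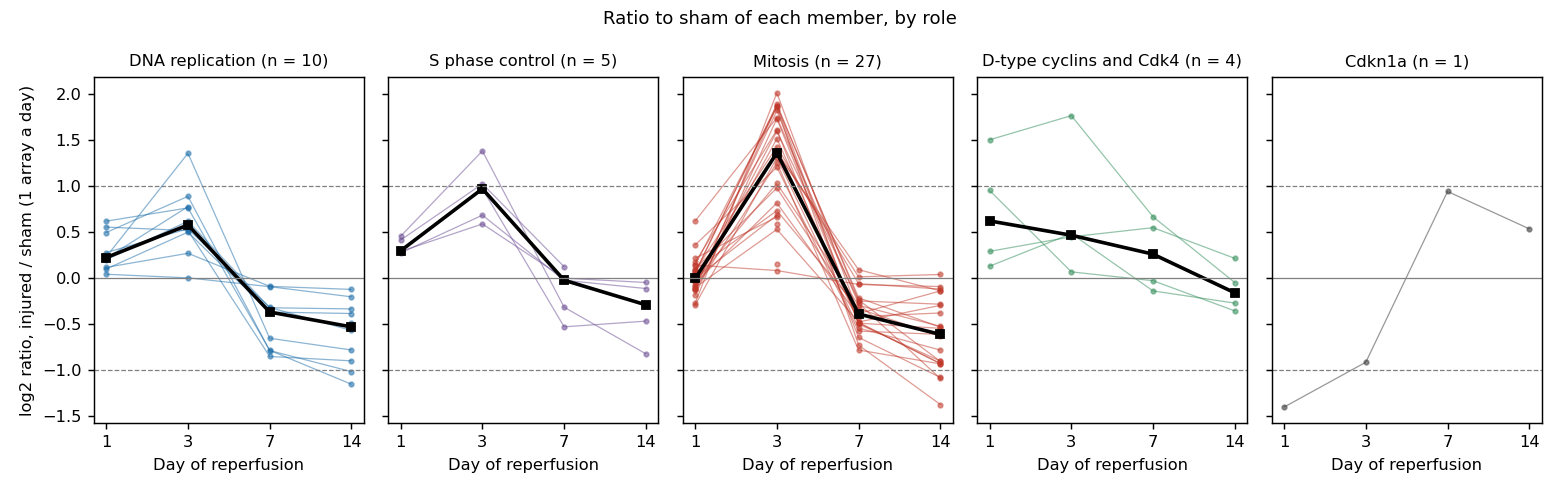
Log2 ratio of injured to sham muscle (vertical axis) on each day of reperfusion (horizontal axis), 1 panel per role, thin lines for single genes on the days they were measured and thick black lines for group medians; dashed lines mark 2-fold. Mitosis genes stand near 0 on day 1 (median -0.01), peak on day 3 (1.36) and lie below 0 on day 14 (-0.61), while Cdkn1a runs from -1.40 to 0.94 between days 1 and 7.

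Day 3 was the day on which most of these genes were high. On that array 22 of the 47 genes were at least 2-fold higher in injured than in sham muscle and none was lower, against 2.48% higher and 3.95% lower among all 24437 genes measured. The median log2 ratio of the 47 was 0.97, beside 0.03 for all genes. On day 1, 1 of 45 measured was higher (Ccnd1) and 1 lower (Cdkn1a), beside 1.23% and 4.92% of all genes, and the median was 0.12. On day 7 none of 42 was past 2-fold in either direction, beside 3.14% higher and 1.24% lower of all genes, and the median was -0.32. On day 14 none was higher and 5 of 42 were lower, beside 3.15% and 1.57%, with a median of -0.51. All-gene medians were 0.02, 0.04 and 0.05 on days 1, 7 and 14.

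The height of these ratios depended on how an array was centred. Loess, used here, sets the average gene of each brightness to 0. Centring each array on its median over all probes moved the all-gene medians of measured genes to 0.37, 0.29, 0.27 and 0.27 on days 1, 3, 7 and 14. The medians of the 47 genes then became 0.85, 1.69, 0.02 and -0.21, so the day 7 median changed sign while the order of the days did not. Counts of genes higher became 18, 36, 2 and 1 on days 1, 3, 7 and 14, beside 21.8%, 17.2%, 11.6% and 12.2% of all genes under that centring. The 1 lower on day 1 and the 5 lower on day 14 became 0, beside 1.89% and 0.417%. In the authors' deposited ratios, which shrink dim genes less, 3, 35 and 2 genes were higher on days 1, 3 and 7, beside 12%, 15.3% and 17.3% of all genes, and 9 and 20 were lower on days 7 and 14, beside 8.07% and 6.42%.

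Mitosis genes made up most of the day 3 count. Of 27, 18 were at least 2-fold higher, with a group median of 1.36, a lowest ratio of 0.08 (Nek2) and a highest of 2.01 (Cdkn3). Among 10 replication genes 1 was higher, Rrm2, with a group median of 0.58, as were 2 of 5 S phase control genes (median 0.97) and 1 of the 4 D-type cyclin and Cdk4 genes (median 0.46). The mitosis median stood above the replication median by 0.78 on day 3, and by 1.08 in the ratios that the authors deposited. On day 1 the order was the other way: the replication median was 0.22 and the mitosis median -0.01, a difference of -0.23 (-0.54 in the deposited ratios). Median centring kept that order on day 1, with 1.03 for replication and 0.76 for mitosis, the latter with its sign turned. On days 7 and 14 the groups differed by -0.02 and -0.08, and by 0.16 and -0.15 in the deposited ratios, so the day 7 sign turned. Genes are not replicates, and these differences between groups have no test.

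**Figure D2:**
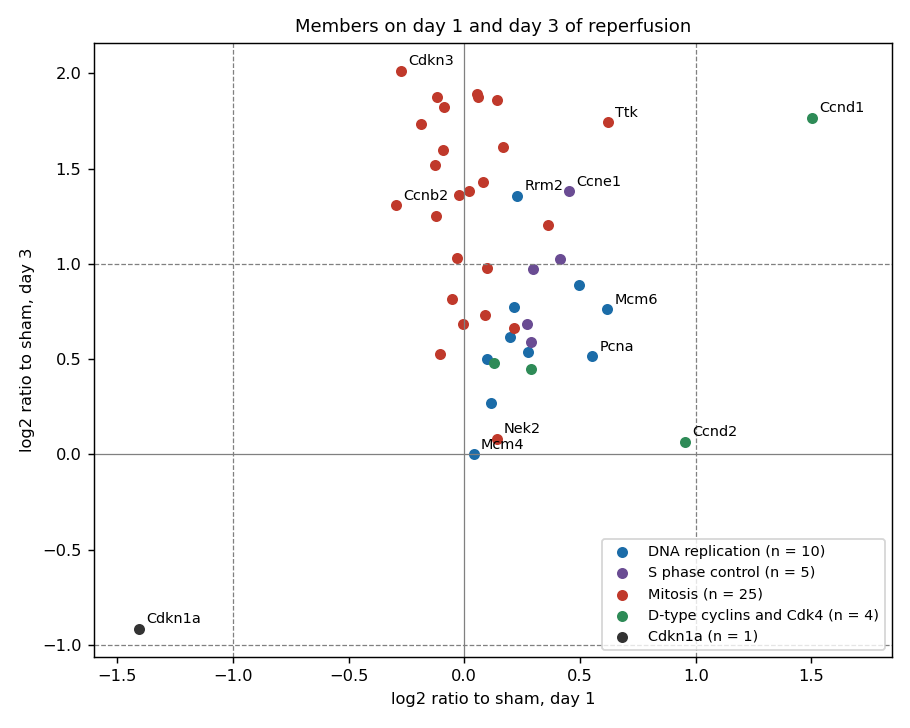
Log2 ratio to sham on day 1 (horizontal axis) against day 3 (vertical axis) for the 45 genes measured on both days, coloured by role; dashed lines mark 2-fold. Mitosis genes form a column near 0 on day 1 that reaches 2.01 on day 3, replication genes lie to the right of 0 on day 1 and mostly below 1 on day 3, and Ccnd1 is past 2-fold on both days.

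Ccnd1, cyclin D1, was the earliest of the genes to be high and, with loess, the only 1 of the 47 past 2-fold on both day 1 and day 3. Its single-channel log2 level was 11.98, 12.44, 11.49 and 10.18 in injured muscle on days 1, 3, 7 and 14, and 10.48, 10.67, 10.82 and 10.23 in sham muscle. All 3 early injured levels lay above every sham level, and the day 14 level lay just below the lowest. It was 2.84-fold higher than sham on day 1, 3.40-fold on day 3 and 1.59-fold on day 7. A second Ccnd1 probe gave log2 ratios of 1.43, 2.26, 1.17 and -0.35, which puts day 7 past 2-fold as well.

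Ccnd2, cyclin D2, was above sham mainly on day 1, short of 2-fold at 1.93-fold. It read 9.50, 8.36, 7.95 and 8.02 in injured muscle and 8.55, 8.29, 7.98 and 8.38 in sham muscle. The day 1 injured level stood apart from all 7 other levels, and from day 3 onward injured and sham muscle lay within 0.36 of each other. Ccnd3, cyclin D3, read 8.08, 7.73, 6.81 and 7.87 in injured muscle and 7.79, 7.28, 6.26 and 7.66 in sham muscle. Both channels of this gene were low on day 7, where its sham spot was not well above background. The injured levels of days 3 and 7 lay inside the range of the 4 sham levels.

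Cdk4, the kinase that the D-type cyclins activate, had nearly level sham values. It read 9.11, 9.48, 8.73 and 8.70 in injured muscle and stayed between 8.87 and 8.99 in all 4 sham channels. Day 3 was 1.40-fold above sham, and days 7 and 14 lay below all sham levels. The group's median ratio was 0.62, 0.46, 0.26 and -0.16 over the 4 days. With all 4 sham channels averaged as the reference, the day 7 median was -0.29, and under median centring the day 14 median was 0.50, so both signs changed with the processing.

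S phase control genes had ratios above 0 on days 1 and 3 in all 5 cases, with 2 past 2-fold on day 3 and none on day 1, and each of the 5 had its highest injured level on day 3. Ccne1, cyclin E1, read 9.07, 10.06, 7.95 and 7.40 in injured muscle and 8.62, 8.67, 8.27 and 8.22 in sham muscle. It was 2.61-fold higher on day 3, and below every sham level on days 7 and 14. Its partner kinase Cdk2 read 8.22, 8.82, 7.11 and 7.32 against 7.93, 7.85, 7.64 and 7.79 in sham muscle, 1.96-fold higher on day 3.

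Ccne2, cyclin E2, read 7.42, 7.86, 7.32 and 6.79 in injured muscle and 7.14, 7.18, 7.34 and 6.90 in sham muscle, a 1.61-fold difference on day 3. Chek1, a checkpoint kinase that slows the cycle when replication stalls, read 6.97, 7.29, 6.27 and 6.33 against 6.69, 6.70, 6.27 and 6.38. Its sham spot was not well above background on any array, and its ratio on day 3 was 0.59.

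Gmnn encodes geminin, which keeps DNA from being copied more than once in a cycle. Gmnn read 8.26, 9.07, 6.21 and 6.14 in injured muscle and 7.85, 8.04, 6.09 and 6.23 in sham muscle, and was just past 2-fold on day 3 (log2 ratio 1.02). Its 4 sham levels had an SD of 1.04, the widest of the 47 genes, with the day 7 and day 14 arrays low in both channels and the sham spot not well above background there. A level read across arrays is therefore unsafe for this gene, while the ratio within the day 3 array does not use the other arrays. Birc5, at 0.98, was the gene just under 2-fold on that day.

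Replication genes were a little above sham early and below it late. All 10 had ratios above 0 on days 1 and 3, and all that were measured lay below 0 on days 7 (9 of 9) and 14 (10 of 10). Of all genes, 53.7% and 55.1% were above 0 on days 1 and 3, and 44.3% and 42.9% below 0 on days 7 and 14. Under median centring the group medians kept these signs (1.03, 1.31, -0.13 and -0.25), but Mcm2, Mcm4, Mcm7 and Rrm1 were above 0 on day 7, and Mcm7 and Rrm1 on day 14. In the deposited ratios Mcm5 was at 0.63 on day 7 and Mcm4 at -0.07 on day 3. Rrm2, the regulated subunit of ribonucleotide reductase, which makes the building blocks of DNA, was the 1 member past 2-fold on day 3. It read 7.97, 9.15, 7.26 and 6.84 in injured muscle and between 7.63 and 7.92 in the 4 sham channels, 2.56-fold higher than sham on day 3. Its days 7 and 14 lay below every sham level. A second, dimmer Rrm2 probe gave ratios of 0.25, 0.78, 0.36 and 0.04, short of 2-fold on day 3 and of the opposite sign on days 7 and 14. Rrm1, the large subunit, was at 0.50 on day 3, and its 2 other, dimmer probes gave -0.28 and -0.02.

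The Mcm genes encode the 6 subunits of the helicase that opens DNA ahead of the replication fork. Mcm3 read 9.60, 9.94, 8.08 and 8.08 in injured muscle and 9.11, 9.05, 8.87 and 9.10 in sham muscle. Mcm6 read 8.14, 8.73, 7.21 and 6.91 in injured muscle and 7.53, 7.97, 7.99 and 8.07 in sham muscle. Both were above all sham levels on days 1 and 3 and below all of them on days 7 and 14. On day 14 Mcm6 was 2.23-fold lower and Mcm3 2.03-fold lower than sham. The Mcm3 value lies just past the threshold (log2 ratio -1.02, with Top2a just short of it at -0.93). With all 4 sham channels averaged as the reference, both kept their sign but were within 2-fold (Mcm3 -0.95, Mcm6 -0.98).

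Of the other helicase subunits, Mcm7 was at 0.62 and Mcm2 at 0.54 on day 3. Mcm5 read 6.89, 7.09, 6.38 and 6.29 against 6.77, 6.83, 6.47 and 6.41 in sham muscle, a range of ratios from -0.12 to 0.27. Mcm4, at 6.67, 6.67, 6.60 and 6.29 against 6.63, 6.67, 6.69 and 6.50, was the lowest of the group on day 3 with a ratio of 0.00. The sham spot of Mcm4 was not well above background on any array. Its flat ratio is therefore not shown to be a flat level.

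Pcna, the sliding clamp of the DNA polymerases, was the 1 replication gene whose injured level was highest on day 1. It read 11.05, 10.76, 8.98 and 9.37 in injured muscle and 10.50, 10.24, 9.83 and 10.27 in sham muscle, above all sham levels on days 1 and 3 and below all of them on days 7 and 14. Day 7 was the lowest ratio of any of the 47 genes on that day, -0.85. Tyms, thymidylate synthase, read 7.11, 7.13, 5.87 and 6.40 against 6.89, 6.36, 5.96 and 6.90. Its day 3 ratio was 0.78 by this processing and 2.59 in the authors' deposited ratios. The Tyms sham spot was not well above background on day 3, and neither spot was on day 7.

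Mitosis genes stood above every sham level on day 3 in 27 of 27 cases, beside 34.6% of all genes. For all 47 genes the count was 43. Only 22 of the 27, and 39 of the 47, had a sham spot well above background on that array. Kif11, Nusap1, Prc1, Cenpf and Nek2 were measured there through the injured channel alone. For genes so measured, a level above sham is favoured by the filter itself. Cdkn3, a phosphatase that acts on the mitotic kinase, had the highest ratio. It read 8.96, 11.63, 9.20 and 8.50 in injured muscle and 9.24, 9.62, 9.60 and 9.12 in sham muscle, 4.04-fold higher on day 3. On day 1 its injured level was below all 4 sham levels, so the step in injured muscle from day 1 to day 3 was 6.35-fold.

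Ccnb1, cyclin B1, the partner of Cdk1 at the entry to mitosis, read 8.80, 10.57, 8.27 and 7.78 in injured muscle and 8.74, 8.68, 8.51 and 8.69 in sham muscle. Plk1, a kinase that acts throughout mitosis, read 8.78, 10.79, 8.20 and 7.25 in injured muscle and 8.89, 8.91, 8.70 and 8.15 in sham muscle. Ube2c, the ubiquitin carrier of the anaphase-promoting complex, read 8.12, 10.22, 8.04 and 7.45 against 8.06, 8.35, 8.25 and 7.99. These 3 genes were 3.70-fold, 3.67-fold and 3.67-fold higher than sham on day 3, with day 1 ratios between -0.12 and 0.06. Their day 14 levels were the lowest of the 4 injured muscles, and below every sham level.

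Cdk1 itself, whose promoter held all 3 motifs, had the widest swing in ratio of the 47 genes. Its probe lies at chr20:20043755-20043814 in the rn4 coordinates of the files, and whether that is coding sequence or UTR was not analysed here. It read 11.05, 13.14, 10.35 and 9.35 in injured muscle and 10.91, 11.28, 11.08 and 10.73 in sham muscle. On day 3 it was 3.63-fold higher than sham, and on day 14 it was 2.60-fold lower. Between days 3 and 7 its injured level went from 13.14 to 10.35, a 6.91-fold difference, while its 4 sham levels stayed between 10.73 and 11.28.

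Ccna2, cyclin A2, which serves both S phase and mitosis, read 8.66, 10.01, 7.52 and 7.21 in injured muscle and 8.49, 8.40, 8.17 and 8.29 in sham muscle. Ttk, the spindle checkpoint kinase also called Mps1, read 9.21, 10.09, 8.16 and 7.37 in injured muscle and 8.59, 8.35, 8.44 and 8.46 in sham muscle. Like Cdk1, both were at least 2-fold higher on day 3 and at least 2-fold lower on day 14, at 2.12-fold and 2.13-fold lower. No other gene of the 47 had that pattern. Under median centring the day 14 ratios of Cdk1, Ccna2 and Ttk were -0.68, -0.57 and -0.55, within 2-fold. A second, dimmer Ttk probe gave 0.88 on day 3 and -0.64 on day 14, short of 2-fold on both. A second, dimmer Ccna2 probe gave 0.70 on day 3 and was not measured on day 14. Ttk also had the highest day 1 ratio of the mitosis genes, 0.62.

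Nek2, a centrosome kinase, and Nusap1, which bundles spindle microtubules, were the lowest mitosis genes on day 3. Nek2 read 6.44, 6.51, 6.43 and 6.25 in injured muscle and 6.30, 6.43, 6.50 and 6.34 in sham muscle. Nusap1 read 6.18, 6.35, 6.12 and 6.14 in injured muscle and 6.16, 6.20, 6.23 and 6.29 in sham muscle. Neither had a sham spot well above background on any array, and Nusap1 was measured on day 3 alone. In the deposited ratios Nusap1 was at 1.14 on day 3 and Nek2 at 0.67.

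The remaining mitosis genes had day 3 ratios from 0.53 (Aurkb) to 1.82 (Mki67). Mki67, the antigen by which pathologists count dividing cells, read 7.92, 10.17, 8.31 and 8.49 in injured muscle, and its sham levels of 8.80 and 9.03 on days 7 and 14 were above the injured levels of those days. The spindle checkpoint genes Bub1 (1.60), Bub1b (1.52) and Mad2l1 (1.20), the kinesins Kif20a (1.73) and Kif23 (1.38), Foxm1 (1.43), which encodes a transcription factor of mitotic genes, and Top2a (1.25), which untangles DNA, were past 2-fold. So were Cdc20 (1.36), Ccnb2 (1.31) and Tpx2 (1.03). The kinesins Kif2c (0.82) and Kif11 (0.68), the Aurora kinases Aurka (0.73) and Aurkb (0.53), and Prc1 (0.66) and Cenpf (0.59) were not. The sham level of Foxm1 was 7.37, 7.83, 6.41 and 6.54, and its late sham spots were not well above background.

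**Figure D3:**
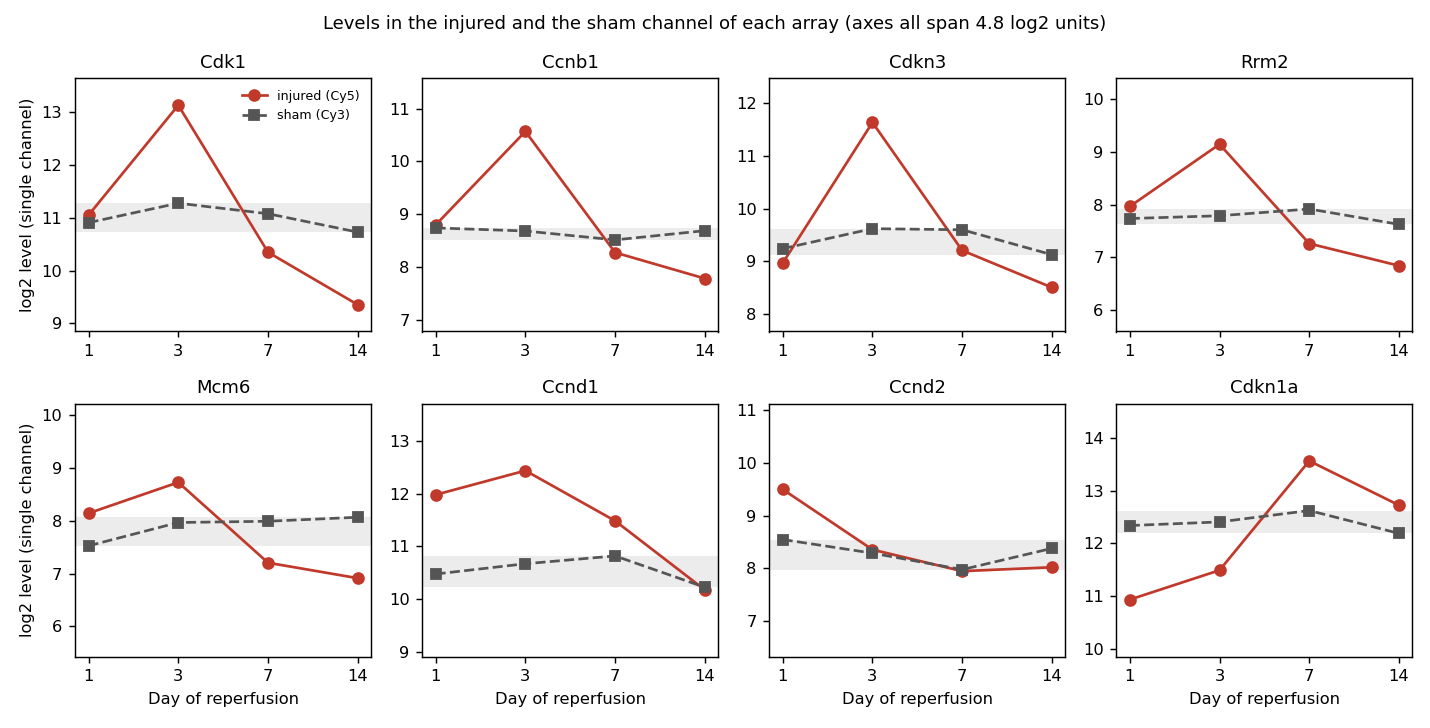
Single-channel log2 level (vertical axis, all panels spanning 4.8 log2 units) in the injured (red circles) and sham (grey squares) channel of each array by day of reperfusion, with the grey band showing the range of the 4 sham levels. Cdk1, Ccnb1, Cdkn3 and Rrm2 peak on day 3 and drop below the band by day 14, Ccnd1 and Ccnd2 are already high on day 1, and Cdkn1a crosses its band upward between days 3 and 7.

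Levels of the injured channel were also compared between days. Each such level is built from the brightness of both channels and their ratio, so this comparison is not independent of sham muscle. From day 1 to day 3, 20 of 47 genes were at least 2-fold higher, beside 3.19% of all genes, and 19 of the 20 were mitosis genes and the other was Rrm2. Ccnd2 was the 1 gene lower, beside 2.48%. From day 3 to day 7, 34 of 47 were lower, beside 5.05%, among them 23 of 27 mitosis and 7 of 10 replication genes. Cdkn1a was the 1 gene higher, beside 4.72%. From day 7 to day 14, 1 of 43 was higher (Ccnd3) and 1 lower (Ccnd1), beside 4.61% and 2.17%. In an alternative chosen after these data were seen, the 4 injured channels were quantile normalized among themselves, with no loess and no use of sham. From day 1 to day 3, 21 of 47 were then higher (20 mitosis genes and Rrm2) and Ccnd2 lower, beside 3.41% and 3.03% of all genes. From day 3 to day 7, 36 were lower and Cdkn1a higher, beside 6.76% and 4.95%, and from day 7 to day 14 Ccnd3 was higher and Plk1 and Ccnd1 lower, beside 5.7% and 2.83%.

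Sham channels of different arrays differed less in these genes. From day 1 to day 3, 0 of 40 were at least 2-fold higher or lower, beside 0.148% and 0.841% of all genes. From day 3 to day 7, 0 of 39 were higher and 3 lower (Gmnn, Foxm1 and Ccnd3), beside 0.203% and 4.7%. From day 7 to day 14, 1 of 37 was higher (Ccnd3) and 0 lower, beside 4.54% and 0.224%. The sham channel of the day 7 array was also the one with the fewest probes above background (34.7%), and its part in these values was not tested.

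The late arrays put most of these genes below sham muscle. On day 7, 28 of 42 measured genes were below all 4 sham levels and 3 above, beside 23.4% and 40% of all genes. On day 14 the counts were 33 and 2 of 42, beside 27.5% and 31.7%. The day 14 count held 19 of 23 mitosis and 9 of 10 replication genes. Day 1 was mixed, with 22 of 45 above all sham levels and 7 below, beside 33.6% and 27.8%. Of the 22, 8 were replication genes, 5 S phase control genes, 5 mitosis genes and 4 the D-type cyclins and Cdk4. On day 3 the 1 gene below every sham level was Cdkn1a, beside 25% of all genes. Such shares carry the array's centring with them. Under median centring the mitosis median on day 7 was 0.02 in place of -0.39, and on day 14 it was -0.32 in place of -0.61.

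By the day of the highest injured level, day 3 held all 27 mitosis genes, 9 of 10 replication genes and all 5 S phase control genes, plus Ccnd1 and Cdk4. Day 1 held Pcna, Ccnd2 and Ccnd3, and day 7 held Cdkn1a. The lowest injured level fell on day 14 for 18 of 27 mitosis and 7 of 10 replication genes. Mki67 and Cenpf had theirs on day 1.

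Cdkn1a ran against the rest. Its probe lies at chr20:7386596-7386655 (rn4). It read 10.93, 11.49, 13.56 and 12.72 in injured muscle and 12.34, 12.40, 12.62 and 12.19 in sham muscle. On days 1 and 3 its injured level was below every sham level, and on days 7 and 14 it was above every one. It was 2.65-fold lower than sham on day 1 and 1.92-fold higher on day 7, and within injured muscle it was 4.21-fold higher on day 7 than on day 3. Under median centring its ratios were -0.09, 0.13, 1.83 and 1.34, so the day 3 sign turned and day 1 lost its 2-fold call, while days 7 and 14 remained the high days. A second, far dimmer Cdkn1a probe gave -0.54, -0.12, 0.29 and -0.26, the opposite sign on day 14.

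**Figure D4:**
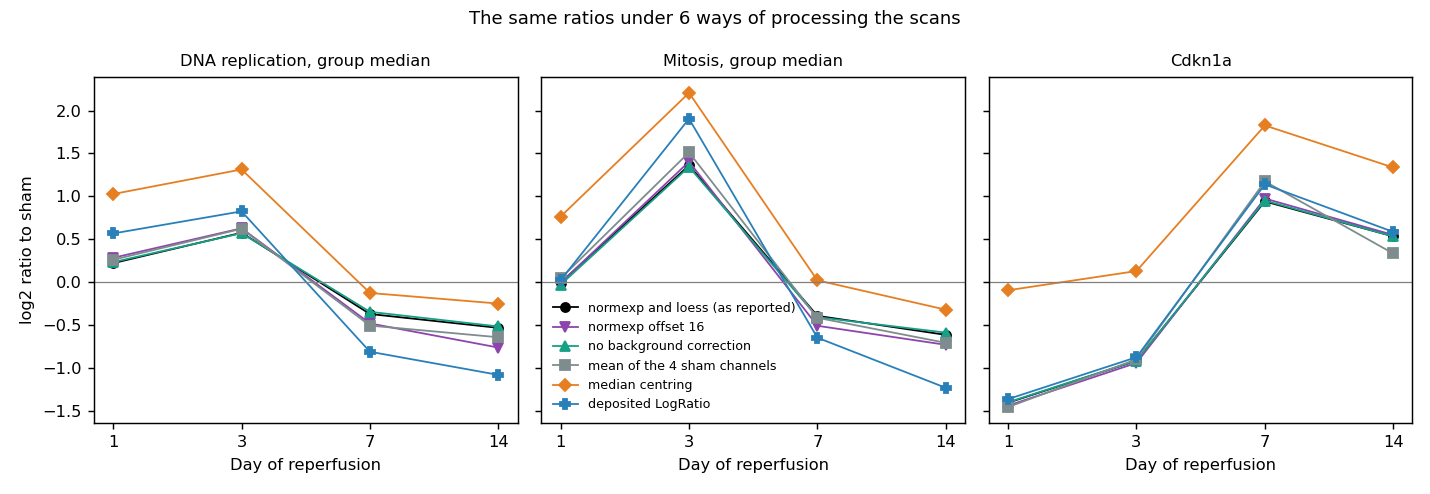
Log2 ratio to sham (vertical axis) by day for the replication median, the mitosis median and Cdkn1a under 6 ways of processing the same scans, 1 line each. The day 3 peak of the mitosis median is between 1.34 and 2.21 in all 6, and the height of every line depends on the centring, with median centring highest on each day.

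Other genes of the same processes were read as 4 further lists. Of all genes, 2.48% were higher and 3.95% lower on day 3. The shares were 3.14% and 1.24% on day 7, and 3.15% and 1.57% on day 14. Of 32 other mitosis genes measured on day 3, 19 were higher and 1 lower, with a median of 1.08. Stmn1, which destabilises microtubules, was at 2.00 and Pttg1, the securin that guards sister chromatids, at 1.97, whereas the kinetochore gene Zwint was at -1.06. Of 25 other replication genes, 2 were higher and none lower, with a median of 0.38. Pold1, the catalytic subunit of polymerase delta, was at 1.12. The mitosis and replication lists thus stood in the same order as among the 47 genes. On day 7 their medians were -0.32 and -0.37, and on day 14 -0.52 and -0.39. On day 7 none of 26 other mitosis genes was called and 1 of 24 other replication genes, Fen1, was lower; on day 14, 2 of 29 and 1 of 24 were lower and none was higher.

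Among 15 E2F, cyclin and CDK genes measured on day 3, 1 was higher, beside 2.48% of all genes. It was E2f1 at 1.08, a transcription factor of replication genes. Wee1, the kinase that restrains Cdk1, was next at 0.66, and the list median was 0.08. On day 14 Myc was the 1 lower gene of 12, at -1.20, beside 1.57% of all genes. Of 18 other inhibitors and growth arrest genes, 1 was higher and 3 were lower on day 3 (median -0.22), beside 2.48% and 3.95%. On day 7, 2 were higher and none lower (median 0.20), beside 3.14% and 1.24%. The 2 lowest on day 3 were the p53 targets Ccng1 (-2.98) and Gadd45a (-2.34). Cdkn1c, also called p57, an inhibitor of the same family as Cdkn1a, read 7.52, 10.43, 13.08 and 11.72 in injured muscle and between 10.74 and 10.99 in sham muscle. It was the lowest of the list on day 1 (-3.38) and the highest on day 7 (2.11), the same order of days as Cdkn1a. Under median centring the day 3 and day 7 medians of these 18 genes were 0.69 and 0.70. In the deposited ratios they were -0.23 and 0.008, so the contrast between these days depended on the processing.

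Markers of several cell types moved over the same days. Fibroblast markers (8 or 9 measured) had medians of -0.94, 1.09, 2.57 and 1.96 on days 1, 3, 7 and 14, with 4 lower on day 1 and 5, 5 and 6 higher on the later days. Of all genes, 4.92% were lower on day 1 and 2.48%, 3.14% and 3.15% higher on the later days. Summed injured signal of the fibroblast markers was 18353, 99825, 144721 and 135970 against 27859 to 58999 in sham muscle. On day 3 that sum leaned on Col1a1 and Col3a1 (log2 levels 14.97 and 15.28). The receptor gene Pdgfra was at 1.67 on day 3, and at -0.43 and -0.15 on days 7 and 14, the 1 marker of 9 below 0 on those days. On day 3 that 1 was Postn, at -0.62. Of all genes, 55.1% were above 0 on day 3, and 44.3% and 42.9% below 0 on days 7 and 14. Muscle precursor markers had medians of -0.92, 0.18, 1.01 and 0.82 over 7 genes, with 4 above 0 and 3 below on day 3, from Myog, a factor of differentiating myoblasts, at -1.45 to Myod1, which specifies myoblasts, at 1.95, and a summed injured signal of 3134, 11055, 66068 and 32563 against 10506 to 15242. Macrophage markers had medians of 0.46, 0.56, 0.59 and -0.85 over 10 genes, and their summed injured signal was 58405, 68145, 72632 and 46293 against 29002 to 38294 in sham muscle. Endothelial markers (9 measured) had medians between 0.07 and 0.25 and summed injured signals of 6743 to 14993 against 4244 to 5533. T cell markers (5 to 7 measured) had medians between 0.09 and 0.39, with sums of 1933 to 6311 against 3015 to 3521. Their members ran apart on days 7 and 14: the receptor chains Cd3g (2.89 and 3.44) and Cd3d (2.00 and 2.65) were higher and Cd8a (-1.57 and -1.88) lower. In the deposited ratios the list's medians were 1.94 and 2.64 on those days. Neutrophil markers (6 or 7 measured) had medians of 0.80, -0.20, -0.38 and -0.46, with injured sums of 11398, 2235, 1080 and 660 against 1943 to 2690. On the day 3 array the summed injured signal was above that array's sham for fibroblast, macrophage and endothelial markers (99825 against 37998, 68145 against 31716 and 6743 against 5410). It was below for precursor (11055 against 12684), T cell (1933 against 3015), neutrophil (2235 against 2690) and fast fibre markers (21906 against 387652). A sum leans on its brightest genes. The precursor sum in sham muscle leans on Myog (log2 level 13.11, injured 11.66), whereas Myod1 read 10.52 in sham and 12.47 in injured muscle. In injured muscle the precursor sums of days 7 and 14 lean on Myh3 (levels 15.65 and 14.59, ratios 5.08 and 4.35). Ratios on those days were 1.01 and 0.11 for Myod1, 0.76 and 0.27 for Myf5 and -0.02 and -1.22 for Myog. Of the 7 precursor markers 4 and 2 were higher, beside 3.14% and 3.15% of all genes, and 0 and 1 lower, beside 1.24% and 1.57%. Lgals3 was the brightest macrophage marker (15.27 injured, 13.62 sham) and Kdr the brightest endothelial marker (12.27 and 11.9). Among the macrophage markers 4 of 10 were below 0 on day 3, the lowest Cd163 at -1.88. They ran apart on days 7 and 14 as well. C1qa (3.55 and 2.91) and C1qb (2.61 and 2.43) were higher, and Cd163 (-1.95 and -2.50) and Mrc1 (-1.69 and -2.06) lower. Of the 10, 5 and 2 were higher on those days, beside 3.14% and 3.15% of all genes, and 2 and 4 lower, beside 1.24% and 1.57%. Summed signal of the fast fibre markers was 46323, 21906, 172429 and 291684 in injured muscle against 158295 to 404500 in sham muscle. Of the defining markers, Dok7 of the precursor list was not well above background on any array, and Pax7, of satellite cells, was not matched to a probe. The part that any of these cell types had in the division genes' values was not tested.

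Where a gene had several probes, the dimmer ones had the same sign as the brightest in 16 of 20 cases on day 1, 18 of 20 on day 3, 14 of 17 on day 7 and 15 of 17 on day 14. On day 3 their log2 ratios differed from that of the brightest probe by a median of 0.56 and at most 1.01. No gene past 2-fold had a saturated or dim spot in either channel. The day 14 array was scanned in a session of its own, apart from the other 3, so the day 14 values and that session cannot be told apart.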

How the data were processed

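Per the labels, total RNA of injured (Cy5) and sham-operated (Cy3) gracilis was amplified and labelled, 1 array per day. Each deposited intensity is the mean over the pixels of a spot, listed with the median of the local background and without normalization. Per the file headers the images were read with Feature Extraction 10.5.1.1; the submitters' processing notes name 9.5.3. The deposited log10 ratio of red over green had its background subtracted and dyes normalized by that software, per the file headers. The deposited log2 value table differed from it by at most 0.005 over 40972 probes, with column medians of 0, so its scale, centring and direction are known.

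Intensities were corrected with normexp (offset 50) and normalized by loess within each array in R 4.3.3 with limma 3.58.1, control and outlier spots at weight 0. The offset shrinks ratios of dim genes. Single-channel levels came from quantile normalization of brightness after loess, so each uses both channels of its array. Spots of a probe were averaged, and a gene took its brightest probe. It was measured on a day if well above background in at least 1 channel, and higher or lower at 2-fold. Names came from RefSeq (GRCr8) through accessions (23 of the 47 genes), symbols (8), symbols with a suffix for predicted genes (14) and descriptions (2). The background correction and loess were tested on arrays simulated from the sham signals, with as many spots set higher as lower. The day 1 array had 283 genes higher and 1127 lower, so the simulation does not test the centring under such an imbalance.

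The genes, lists and roles were chosen with earlier results of these data known. Values by array are given for all members of groups of 5 or fewer, for the 4 highest and 2 lowest replication and mitosis genes on day 3, and for those past 2-fold on day 7 or 14; in each further list the 2 genes farthest in the direction of its day 3 median are named, except 1 that is not reported here. Pcna, Mki67, Foxm1, Zwint, Fen1, Myc and Cdkn1c are described further, chosen after their values were seen. Alternatives tried were the centring, background, offset, deposited ratios, mean sham, probe rule, filters, fold and naming.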

Additional observations from a re-analysis of the deposited data

Results flagged for a closer look

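Cdk1, Ccna2 and Ttk were at least 2-fold higher than sham on day 3 and at least 2-fold lower on day 14, so the same contrast ran in opposite directions on these days. Cdk1 went from 1.86 to -1.38, Ccna2 from 1.61 to -1.08 and Ttk from 1.74 to -1.09. Dimmer second probes of Ccna2 (0.70) and Ttk (0.88) were short of 2-fold on day 3. On day 14 that of Ttk was at -0.64 and that of Ccna2 was not measured. With 1 array per day the difference between days was not tested.

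The 4 sham levels of Aurkb, the kinase of the chromosomal passenger complex, included 1 far from the others. Day 14 was at 6.68 and the next lowest at 6.88, a gap of 0.836 of the whole range. Chance alone gives such a gap in about 1 gene in 20, and 47 were examined.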

How the results depend on the processing

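Values were recomputed under other settings, and a median was taken as moved beyond 0.174, the median SD of the genes over the 4 sham channels, and a count beyond 1.5 times. Leaving out saturated spots, and quantile normalization over all 8 channels for the steps between days, moved none of the results they were run on. Leaving out the background correction moved no median or count by that much; lower on day 14 were 4 in place of 5, as Mcm3 came to -0.99. No result changed its direction while past 2-fold. Medians are for days 1, 3, 7 and 14. Median centring gave 0.85, 1.69, 0.021 and -0.21 for all 47 genes, 1.03, 1.31, -0.13 and -0.25 for replication, 0.76, 2.21, 0.022 and -0.32 for mitosis, 1.57, 1.17, 0.54 and 0.50 for the D-type cyclins and Cdk4, and -0.094, 0.13, 1.83 and 1.34 for Cdkn1a; S phase control was 1.13, 1.72 and -0.056 on days 1, 3 and 14. It called 18, 36, 2 and 1 genes higher, beside 21.8%, 17.2%, 11.6% and 12.2% of all genes, and 0 lower on days 1 and 14, beside 1.89% and 0.417%. The deposited ratios gave 0.30, 1.47, -0.58 and -0.92 for all 47 genes and 0.57, 0.83, -0.81 and -1.08 for replication. They gave 0.73, 1.38, 0.25 and -0.53 for S phase control, and 1.90, -0.65 and -1.23 for mitosis from day 3. The D-type group was then at 0.89 and 0.65 on days 1 and 3, and Cdkn1a at 1.14 on day 7. Higher were 3, 35 and 2 genes on days 1, 3 and 7, beside 12%, 15.3% and 17.3% of all genes, and lower 9 and 20 on days 7 and 14, beside 8.07% and 6.42%. An offset of 16 gave 11 genes lower on day 14 and a replication median of -0.76. Against the mean of the 4 sham channels, 3 genes were higher on day 1 and 1 on day 7, and 2 lower on day 7; the D-type group was at 1.02 and -0.29 on days 1 and 7, S phase control at -0.49 on day 7, and Cdkn1a at 1.17 and 0.33 on days 7 and 14. Leaving out 1 sham channel in turn gave 2 to 4 genes higher on day 1, 1 to 2 higher and 2 to 4 lower on day 7, and 5 to 8 lower on day 14. Medians then ranged from 0.39 to 0.53 and from -0.57 to -0.42 for S phase control on days 1 and 7, from 0.80 to 1.15 and from -0.36 to -0.24 for the D-type group on those days, from 1.44 to 1.56 and from -0.79 to -0.64 for mitosis on days 3 and 14, and from 1.11 to 1.25 and from 0.27 to 0.41 for Cdkn1a on days 7 and 14. Averaging a gene's probes gave 0 lower on day 1 and 3 on day 14, Cdkn1a at -0.97, -0.52, 0.62 and 0.14, and S phase control at 0.66 and -0.30 on days 3 and 7. Requiring both channels above background gave 1.20 on day 3 for the 47 genes, of which 39 were so measured. On day 7 it gave -0.66 for replication, -0.32 for S phase control and -0.030 for the D-type group, and on day 14 -0.47 for S phase control. Without a filter that last value was -0.12. A fold of 1.5 counted 4, 35 and 2 higher on days 1, 3 and 7, 1, 7 and 17 lower on days 3, 7 and 14, and 7 lower from day 7 to day 14. A looser fold raises such counts for any set of genes. Shares of all genes were not computed for this fold. Nor were they for the counts under the other background, offset, sham reference, probe and naming settings, so these counts have no yardstick. With the injured channels normalized alone, added after the data were seen, 2 were lower from day 7 to day 14. Naming by the file's gene name alone gave 3 lower on day 14. In the whole promoter window, which runs past the start, a CHR was in 66.7% of mitosis windows and 18.3% of all. The cause of these changes was not tested. No paired analysis was possible because each day has 1 array and the groups share only 1 replicate number.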
